A study of Mus musculus with 9 samples.

Results

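This comparison set donor T cells recovered on day 7 from allogeneic mouse recipients against donor T cells recovered on day 7 from syngeneic recipients, across all genes. Its members are 6 of the 9 RNA-seq libraries of the series, 3 allogeneic and 3 syngeneic, chosen by their sample labels alone. The other 3 libraries hold naive T cells of healthy C57BL/6 mice. These libraries share the estimate of the spread and give the level before transfer. The age listed for all 9 libraries is 8 to 12 weeks. For all 9, T cells were enriched from spleen with a kit, live cells carrying CD3 and CD45.2 were sorted, and total RNA was freed of ribosomal RNA before sequencing. Donors of T cells and marrow were female C57BL/6 mice (H-2b, CD45.2) aged 8 to 12 weeks. Syngeneic recipients were B6.SJL-Ptprca Pepcb/BoyJ mice (H-2b, CD45.1) given 9.5 Gy of irradiation and 8500000 T cells, and allogeneic recipients were CByJ.SJL(B6)-Ptprca/J mice (H-2d, CD45.1) given 8 Gy as a split dose and 1000000 T cells. Both kinds of recipient also received 5000000 T-cell-depleted marrow cells, whose progeny carry CD45.2 as the transferred T cells do. Each transplant library pools 2 to 4 recipients. Recipient strain, irradiation dose and T cell number change together between the groups and cannot be told apart. The strain field of the labels names the syngeneic recipient strain for all 9 libraries, which goes against the protocols and was not used.

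When T cells enter a host that differs at the major histocompatibility complex, a share of them recognises host tissue antigens, divides, and leaves the naive state. In a matched host the same cells divide in answer to the emptied lymphoid compartment. Both kinds of recipient were irradiated, so this drive can act in both. Such cells are known for their cytotoxic, checkpoint and homing genes. The values here concern the surface receptors, second messengers, cytoskeleton, organelles, transcription factors, RNA and chromatin enzymes and stress and lipid genes around that core.

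Totals ranged from 103953932 to 176678189 counts in the 6 transplant libraries, and levels are given as CPM, read counts relative to the library total after scaling by the trimmed mean of M-values. At these depths 3 counts come to 0.029 CPM or less. Reads carry no molecular identifiers, so this limit covers counting error only. The p-values measure the spread between replicate libraries of all 3 groups, the naive ones included. The transplant replicates are pools of recipients. The summed level of 10 T-cell markers was 3410 to 3796 CPM in the allogeneic, 2318 to 2994 CPM in the syngeneic and 3579 to 4137 CPM in the naive libraries. In the same order the sum of 14 erythroid markers was 26.2 to 103, 2379 to 5590 and 8.50 to 9.44 CPM. B-cell markers summed to 39.0 to 44.9 CPM in the allogeneic and 80.8 to 107 CPM in the syngeneic libraries. Macrophage markers summed to 63.9 to 92.8 against 60.1 to 217 CPM, and neutrophil markers to 609 to 1077 against 440 to 1348 CPM. Of 14 macrophage markers 11 fell and of 10 B-cell markers 7 fell. Of 6 dendritic-cell markers tested 5 fell and 1 rose, the rising one being Itgax, an integrin that activated T cells also carry. NK-cell markers summed to 104 to 129 against 189 to 232 CPM, with 2 of 7 higher and 5 lower, and mast-cell and basophil markers to 7.61 to 39.0 against 2.17 to 10.8 CPM, with 3 of 5 higher. Neutrophil markers, of which 0 of 10 were called, summed to 1.57 to 4.85 CPM in the naive libraries. T-cell markers were thus present in all 6 libraries, and red-cell transcripts were higher in every syngeneic than in every allogeneic library. In bulk RNA, fewer cells of a type and less RNA per cell cannot be told apart. Scaling the libraries to their T-cell markers instead moved the median log2 fold change of all genes from -0.02 to -0.53, so list medians below are given under both scalings and are to be read relative to those values.

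In what follows, rose and fell mean higher and lower in the allogeneic than in the syngeneic libraries at a Benjamini-Hochberg adjusted p under 0.05 in edgeR's quasi-likelihood test, fold changes are on the log2 scale, and ± is the standard error of a fold change. Of 19609 genes tested, 8832 (45.0%) were called, 4766 (24.3%) higher and 4066 (20.7%) lower. Calls of at least 2-fold numbered 1533 higher (7.82%) and 2283 lower (11.6%). Scaled to T-cell markers, 1513 genes were higher and 9301 lower, so that 14% of the calls were increases in place of 54%. The 3 allogeneic values did not overlap the 3 syngeneic values for 10815 genes (55.2%). Protein-coding genes had 30.7% of 13934 called higher and 20.2% lower. Long noncoding genes had 10.8% of 2052 called higher and 21.8% lower, and 41.1% of 970 transcripts of the unsettled TEC class were lower. The 50 gene lists of this comparison, 49 of them described below and all chosen with earlier results of these data known, held 2179 tested genes, of which 35.2% were higher and 21.5% lower. The counts of each list are to be read against the 24.3% and 20.7% of all genes. Of 31 lists with a positive median, 2 stayed positive with T-cell scaling. All 15 lists with a negative median stayed negative.

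**Figure D1:**
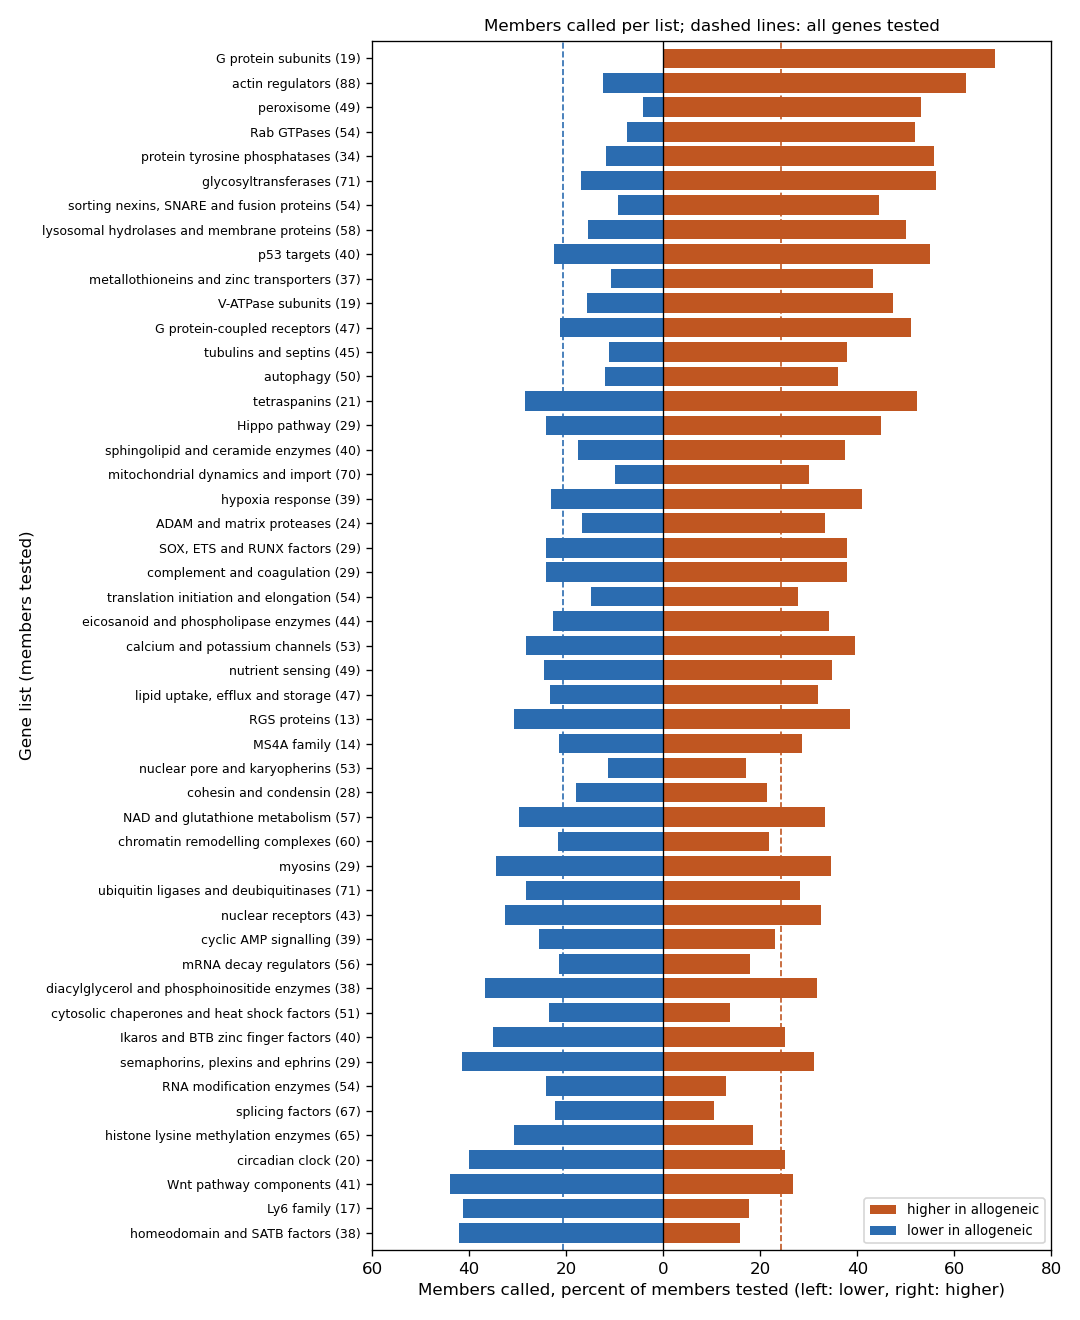
Percentage of tested members called higher (right) or lower (left) in allogeneic libraries for 49 of the 50 lists, with the number tested in parentheses and dashed lines at 24.3% higher and 20.7% lower for all genes. G protein subunits (68.4% higher, 0 lower) and actin regulators (62.5% higher) stand at the top and homeodomain factors (42.1% lower) at the bottom. The calls shown are those without T-cell scaling, with which 3 G protein subunits were higher and 2 lower. T-cell scaling lowered every list median, as it lowered that of all genes from -0.02 to -0.53.

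Among the genes that answer to oxygen, the transcript of the oxygen-labile transcription factor HIF-2α rose most. Other called members moved in both directions. The list of 39 hypoxia-response genes had 16 members that rose and 9 that fell (median log2 change 0.11, and -0.38 with T-cell scaling). The shares were 41.0% higher and 23.1% lower, against 24.3% and 20.7% of all genes. Epas1, which encodes HIF-2α and lies at 17:86753700-86833410 on the plus strand (GRCm38, GENCODE M21), was at 9.86, 7.68 and 8.19 CPM in syngeneic libraries 1, 2 and 3 and 243, 301 and 249 CPM in allogeneic libraries 1, 2 and 3. Every allogeneic value lay above every syngeneic one and above the naive values of 18.7, 16.1 and 19.4 CPM (log2 fold change 4.94 ± 0.14, adjusted p = 2.74e-09). Hif1a, its widely expressed relative, moved from 109, 108 and 101 to 274, 255 and 323 CPM without overlap (log2 fold change 1.42 ± 0.10, adjusted p = 6.91e-07). Genes of HIF turnover rose as well, Egln3, a prolyl hydroxylase that marks HIF for decay, from 2.11, 2.83 and 2.52 to 9.34, 7.42 and 6.62 CPM (1.65 ± 0.18), and Vhl, which binds the marked protein, less so (0.79 ± 0.11, and 0.30, adjusted p = 0.0574, with T-cell scaling). Pdk1, the kinase that holds pyruvate back from the mitochondrion and a textbook HIF target, fell from 192, 152 and 142 CPM in the syngeneic to 39, 33.3 and 27.9 CPM in the allogeneic libraries (log2 fold change -2.28 ± 0.15, adjusted p = 5.89e-07). The naive libraries held 281, 264 and 326 CPM of Pdk1, so the 3 groups did not overlap. Other members that fell were Zfp395 (-1.89 ± 0.10), Stc2, a secreted glycoprotein (-2.08 ± 0.19), Car12, a carbonic anhydrase (-1.56 ± 0.15), and P4ha1, a collagen prolyl hydroxylase (-1.15 ± 0.13). Ddit4, an inhibitor of mTORC1 that hypoxia and glucocorticoids are known to induce, rose (1.52 ± 0.15). Hif1a, Egln3, Vhl and Ddit4 were chosen after their values were seen.

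Called genes of the circadian clock moved in both directions. In the textbook loop, CLOCK and ARNTL bind E-boxes and drive the Per, Cry, Ciart, Dbp and Nr1d genes, whose products repress them, while BHLHE40 competes for the same E-boxes and NFIL3 opposes DBP. Of the genes in this loop, Bhlhe40, Nfil3, Arntl and Cry1 rose, the last 2 not under every setting. Ciart, Per1, Per2, Per3, Cry2, Dbp, Nr1d1 and Nr1d2 fell, so repressors moved in both directions. Whether any of these changes drives another was not tested. Among 20 clock genes, 5 rose and 8 fell (median log2 change -0.26, and -0.76 with T-cell scaling), and the median of -0.26 became -0.14 without allogeneic replicate 1. Bhlhe40 stood at 63.5, 62.2 and 68.4 CPM in the syngeneic and 421, 431 and 382 CPM in the allogeneic libraries, against 9.45, 12.7 and 9.16 CPM in naive T cells (log2 fold change 2.67 ± 0.12, adjusted p = 5.48e-08). Nfil3 went from 7.43, 9.93 and 8.8 to 61.8, 51.4 and 46.4 CPM (log2 fold change 2.61 ± 0.14, adjusted p = 1.07e-07). For both, the syngeneic values lay between the naive and the allogeneic ones without overlap between the transplant groups. Ciart, a repressor of CLOCK and ARNTL, fell from 5.67, 4.02 and 3.83 to 1.16, 1.08 and 0.788 CPM (log2 fold change -2.15 ± 0.24, adjusted p = 3.39e-05), and Per2 from 10.9, 11.6 and 12.1 to 3.92, 3.6 and 4.47 CPM (log2 fold change -1.53 ± 0.13, adjusted p = 3.52e-06). Per3 fell by 1.44 ± 0.17, Dbp by 1.16 ± 0.14 and Per1 by 0.78 ± 0.11, all without overlap between the transplant groups. Per1 was at 122, 128 and 109 CPM in the syngeneic and 63.3, 80.9 and 64.3 CPM in the allogeneic libraries. Its naive values of 78.4, 68.7 and 70.1 CPM overlapped the allogeneic ones, and the syngeneic ones lay above both. Naive values of Dbp (26.7, 23.2 and 27.7 CPM) lay above both transplant groups, and those of Per3 (3.79, 3.83 and 3.42 CPM) above the allogeneic one. The paired repressors of Arntl fell as well, Nr1d1 from 3.21, 3.07 and 2.71 to 0.619, 0.373 and 0.566 CPM (log2 fold change -2.54 ± 0.22, adjusted p = 4.3e-06) and Nr1d2 from 19.8, 20.6 and 16.5 to 9.86, 10 and 7.46 CPM (log2 fold change -1.06 ± 0.13, adjusted p = 7.37e-05). Arntl itself was at 15, 15.1 and 15.3 CPM in the syngeneic and 18.5, 24.1 and 25.3 CPM in the allogeneic libraries (log2 fold change 0.58 ± 0.11, adjusted p = 0.00171, and 0.09 with T-cell scaling), and Cry2 fell (-0.64 ± 0.11). The naive libraries held 25.9, 27 and 26.7 CPM of Arntl, above both transplant groups. Clock was not called (-0.24 ± 0.10, adjusted p = 0.0737). Cry1 passed the test at 0.34 ± 0.10 but not without syngeneic replicate 2 (adjusted p = 0.0897), syngeneic replicate 3 (0.0618) or allogeneic replicate 3 (0.0779), and it was -0.14 with T-cell scaling. Members of this list and the Nr1d genes beyond Bhlhe40, Nfil3, Ciart, Per2, Arntl and Nr1d1 were chosen after their values were seen. Both groups were collected on day 7, and the labels give no hour of collection.

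Because the Per, Cry, Ciart, Dbp and Nr1d genes are known E-box genes, the promoter windows of the clock genes were read for the perfect E-box CACGTG. This sequence is its own reverse complement. Of 22 genes looked up, 18 had an entry in the RefSeq promoter table (GRCm38.p6), and 5 of these (Bhlhe41, Ciart, Cry1, Per1 and Tef) held CACGTG within the 250 bases before a start. The share was 6.86% of all 27025 genes in the table. The windows of Ciart, with 3 copies, and Per1, with 1 copy, are shown since both genes fell. Capitals mark the E-box, and both run 5′ to 3′ on the gene's strand, Ciart at chr3:95882229-95882478 on the minus strand and Per1 at chr11:69098699-69098948 on the plus strand.
Ciart: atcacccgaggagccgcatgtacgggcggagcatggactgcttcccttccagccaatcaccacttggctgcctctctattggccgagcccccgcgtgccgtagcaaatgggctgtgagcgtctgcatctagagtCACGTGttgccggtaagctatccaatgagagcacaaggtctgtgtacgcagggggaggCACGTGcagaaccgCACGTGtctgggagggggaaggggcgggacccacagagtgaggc
Per1: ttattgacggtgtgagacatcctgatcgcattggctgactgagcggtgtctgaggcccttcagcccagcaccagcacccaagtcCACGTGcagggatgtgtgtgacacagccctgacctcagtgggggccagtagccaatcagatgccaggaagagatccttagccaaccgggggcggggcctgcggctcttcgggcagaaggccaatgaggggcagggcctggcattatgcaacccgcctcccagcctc
Cry1, with 1 copy, and Tef, with 1 copy in each of its 2 windows, were not called lower (0.34 ± 0.10 and 0.25 ± 0.15), nor was Bhlhe41, with 1 copy (-0.83 ± 0.35, adjusted p = 0.0773). The fallen genes Per3, Dbp, Cry2, Nr1d1 and Nr1d2 had no CACGTG in these windows, and Per2 had no entry. The letters describe these windows and were not tested against binding.

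Nuclear receptors rose and fell in equal number. In all, 14 of 43 nuclear receptors and their partners rose and 14 fell (median log2 change 0.13, and -0.37 with T-cell scaling). Ahr, the receptor for dioxin-like and dietary aromatic ligands, rose from 7.84, 9.83 and 8.68 to 73.5, 82.7 and 75.2 CPM, with naive libraries at 5.93, 7.64 and 6.53 CPM (log2 fold change 3.13 ± 0.12, adjusted p = 1.98e-08). Tiparp, a gene that AHR is known to induce, was at 15.6, 19.4 and 13 CPM in the syngeneic and 16.8, 18 and 19 CPM in the allogeneic libraries, and these overlapped (0.17 ± 0.14, adjusted p = 0.34). Vdr, the vitamin D receptor, went from 1.58, 1.73 and 1.42 to 14.3, 12.1 and 10.8 CPM (log2 fold change 2.97 ± 0.24, adjusted p = 2.98e-06), and its partner Rxra from 42.6, 37 and 39.5 to 88.1, 85.6 and 57.3 CPM (0.95 ± 0.14). Rora, an activator at the sites that Nr1d1 and Nr1d2 repress, rose from 16.5, 22 and 17.1 to 60.2, 92.9 and 94.7 CPM (log2 fold change 2.16 ± 0.18, adjusted p = 3.52e-06). Fkbp5, a glucocorticoid-inducible co-chaperone of the steroid receptors, rose from 133, 109 and 120 to 497, 518 and 458 CPM (log2 fold change 2.03 ± 0.10, adjusted p = 6.45e-08). Cyp11a1, which makes pregnenolone from cholesterol, was at 0.352, 0.695 and 0.992 CPM in the syngeneic and 6.77, 4.94 and 2.65 CPM in the allogeneic libraries (2.82 ± 0.40). Both thyroid hormone receptors fell: Thra from 14.9, 15.8 and 14.6 to 4.67, 3.21 and 4.31 CPM (log2 fold change -1.90 ± 0.14, adjusted p = 1.43e-06) and Thrb from 3.38, 2.09 and 2.05 to 0.61, 0.635 and 0.918 CPM (-1.80 ± 0.26). Tiparp, Rxra, Rora, Fkbp5 and Thrb were chosen after their values were seen.

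**Figure D2:**
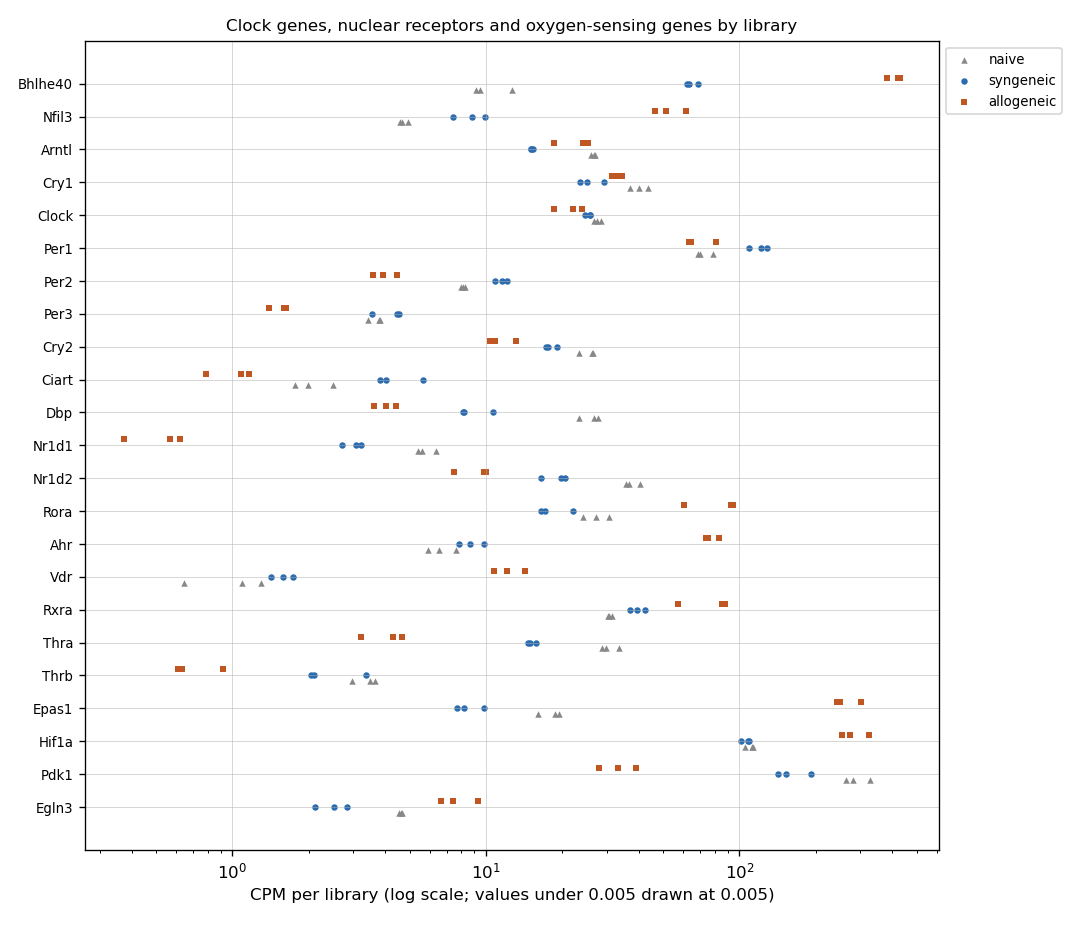
CPM per library on a log axis for 23 clock, nuclear receptor and oxygen-sensing genes, with triangles for naive, circles for syngeneic and squares for allogeneic libraries. Epas1 is at 243 to 301 CPM in the allogeneic and 7.68 to 9.86 CPM in the syngeneic libraries, while Nr1d1 is at 0.373 to 0.619 against 2.71 to 3.21 CPM.

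Zinc finger repressors of the Ikaros and BTB families also moved in both directions. With 40 factors tested, 10 rose and 14 fell (median log2 change 0.03, and -0.45 with T-cell scaling). That is 25.0% higher and 35.0% lower, against 24.3% and 20.7% of all genes. Zbtb32, a repressor of cytokine genes, was at 6.89, 6.07 and 6.94 CPM in the syngeneic and 57.4, 59.9 and 75 CPM in the allogeneic libraries (log2 fold change 3.27 ± 0.13, adjusted p = 1.9e-08), and Hic1 rose from 7.26, 5.98 and 7.29 to 26.2, 30.6 and 24.6 CPM (1.99 ± 0.16). Zbtb10 (-3.36 ± 0.26), Zbtb18 (-2.15 ± 0.10) and Zbtb20 (-2.14 ± 0.18) fell without overlap. Zbtb20 showed the full span of the 3 groups, with 93.5, 109 and 70.2 CPM in naive, 37.9, 53.2 and 38.9 CPM in syngeneic and 8.57, 10.3 and 10.6 CPM in allogeneic libraries. Homeodomain factors had 42.1% of members lower, against 20.7% of all genes. Factors had 6 members higher and 16 lower of 38 tested (median log2 change -0.39, and -0.89 with T-cell scaling). Pou6f1 (-1.57 ± 0.12), Tgif2 (-1.35 ± 0.12) and, chosen after their values were seen, Zeb1 (-0.99 ± 0.08) and the sparsely read Hoxa5 (-2.64 ± 0.42) fell. Pou2f2, which encodes the octamer factor OCT2, went the other way, from 39.7, 36.1 and 39.7 to 115, 162 and 172 CPM (log2 fold change 1.96 ± 0.13, adjusted p = 6.83e-07). Tests of 29 SOX, ETS and RUNX factors called 11 higher and 7 lower (median log2 change 0.04, and -0.45 with T-cell scaling). Runx2, known from bone and from memory T cells, rose from 56.5, 59.6 and 69 to 130, 178 and 178 CPM against 13.4, 16.7 and 13.2 CPM in naive T cells (log2 fold change 1.40 ± 0.14, adjusted p = 1.38e-05). Cbfa2t3, a corepressor, rose (1.46 ± 0.29), and Ets2 (-0.97 ± 0.09) and Sox4 (-1.68 ± 0.24) fell.

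Outside all lists, the 20 largest increases among expressed protein-coding genes included genes better known from epithelium or nervous tissue. Dpysl3, a semaphorin-pathway protein of growing axons, was at 0.0246, 0.0722 and 0.117 CPM in the syngeneic and 7.48, 11.8 and 15.4 CPM in the allogeneic libraries (log2 fold change 7.34 ± 0.55, adjusted p = 1.57e-06). Dsp, the desmosome component desmoplakin, went from 0.533, 0.668 and 0.568 to 18.5, 28.4 and 28.4 CPM (log2 fold change 5.41 ± 0.26, adjusted p = 6.45e-08). Spock2, a secreted proteoglycan, showed the smallest adjusted p of the 20, with 5.16, 6.01 and 4.62 CPM in the syngeneic and 111, 130 and 113 CPM in the allogeneic libraries (log2 fold change 4.48 ± 0.13, adjusted p = 2.77e-09). The rule for choosing the 20 required that the transplant groups not overlap. The naive libraries held 18.4, 19 and 15.8 CPM of Spock2. St14, the membrane protease matriptase, rose from 6.49, 5.64 and 6.15 to 76.7, 77.5 and 73.6 CPM (3.64 ± 0.13), and Trpm6, a magnesium channel, from 0.787, 1.07 and 0.577 to 21.9, 22.9 and 26.8 CPM (4.87 ± 0.28). Ifitm1, a membrane protein that restricts viral entry, rose from 8.78, 11.1 and 12.2 to 128, 170 and 212 CPM (3.99 ± 0.25). The set also held the chemokine gene Ccl1 (3.47 ± 0.34), the costimulatory ligand Cd80 (3.42 ± 0.20), the calmodulin-binding Nrgn (4.32 ± 0.20), the nuclease gene Dnase1l3 (4.13 ± 0.28), the mTORC2 subunit Prr5 (3.83 ± 0.24) and the mitochondrial carbonic anhydrase Car5b (3.50 ± 0.17). Its other members were Muc20, Vax2, Tns2, Lgals7, Rasl11a, AA467197, Fam20a and Esm1, with increases from 3.58 to 5.06.

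The 20 largest decreases were taken among genes that naive T cells also carry. Slc16a5, a monocarboxylate transporter, was at 46.8, 26.6 and 28.8 CPM in the syngeneic and 1.02, 1.63 and 1.32 CPM in the allogeneic libraries, with 61.9, 51.7 and 62.6 CPM in the naive ones (log2 fold change -4.67 ± 0.25, adjusted p = 1.08e-07). Slc6a19, a neutral amino acid transporter, fell from 14, 9.93 and 9.3 to 0.356, 0.446 and 0.408 CPM (log2 fold change -4.77 ± 0.25, adjusted p = 1.04e-07), and Atp1b1, the beta subunit of the sodium pump, from 47.9, 37.4 and 35.4 to 2.19, 2.75 and 2.5 CPM (log2 fold change -4.01 ± 0.16, adjusted p = 2.15e-08). In all 3 the syngeneic libraries lay below the naive ones and far above the allogeneic ones. Sh3pxd2a, the podosome scaffold TKS5, fell from 96.4, 77.7 and 86.1 to 4.24, 5.85 and 5.41 CPM (log2 fold change -4.06 ± 0.13, adjusted p = 5.18e-09). Irs2, the insulin receptor substrate, fell from 71.5, 67.5 and 55.1 to 7.33, 6.51 and 7.18 CPM (log2 fold change -3.21 ± 0.16, adjusted p = 8.75e-08). Tet1, which oxidises 5-methylcytosine in DNA, fell from 29.2, 27.2 and 23.3 to 3.12, 2.59 and 3.06 CPM (log2 fold change -3.19 ± 0.12, adjusted p = 1.58e-08). Acvrl1, a type I receptor for bone morphogenetic proteins (-3.41 ± 0.22), and Lrig1, a brake on growth factor receptors (-3.08 ± 0.16), fell too. Samd3 was higher in the syngeneic (46.8, 46.7 and 55.1 CPM) than in the naive (9.64, 10.2 and 8.33 CPM) libraries and lowest in the allogeneic ones (3.88, 3.59 and 3.74 CPM). Tmem108, Sorcs2, Plekha6, Amigo2, H2-Ob and Cacna2d4 fell by 2.93 to 4.81 on the log2 scale. H2-Ob is also a B-cell gene, and the B-cell marker sum was lower in allogeneic libraries as given above, but its part in this result was not tested. The remaining 5, March3, Slc25a37, Car2, Slc16a10 and Map4k5, had their syngeneic library 1 below 0.5 of the mean of libraries 2 and 3, as the erythroid marker sum did.

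**Figure D3:**
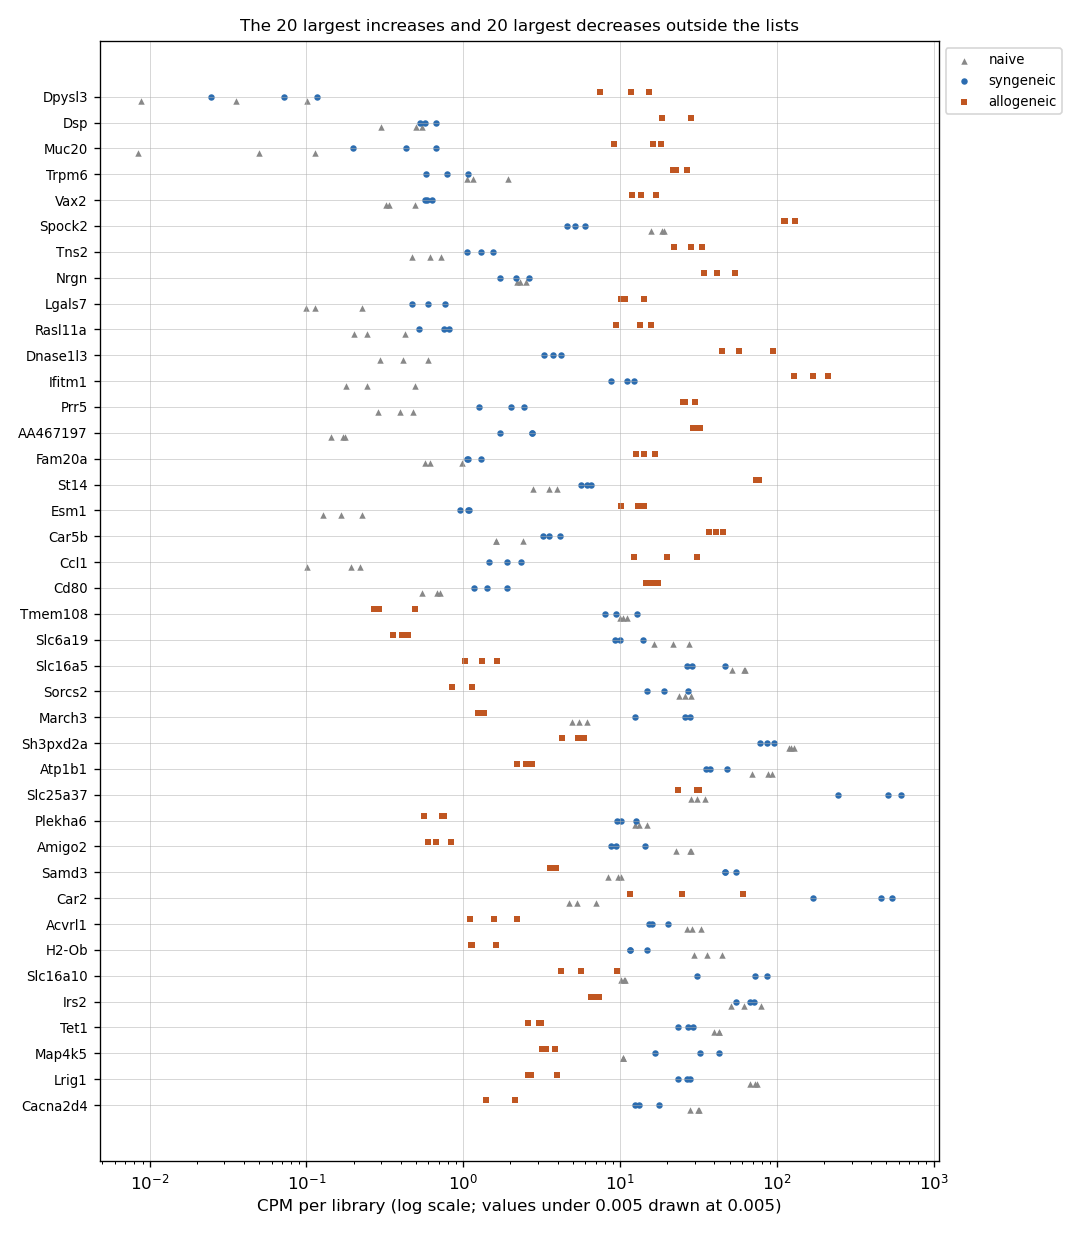
CPM per library on a log axis for the 20 largest increases (top) and 20 largest decreases (bottom) outside the lists, with triangles for naive, circles for syngeneic and squares for allogeneic libraries. The groups do not overlap for any of the 40 genes, which the rule for choosing them required, and Spock2 and Sh3pxd2a show narrow groups.

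At the cell surface, guidance receptors and proteases held some of the largest changes of the lists. Of 29 semaphorin, plexin and ephrin genes tested, 9 rose and 12 fell (median log2 change -0.30, and -0.82 with T-cell scaling). Epha3, a receptor tyrosine kinase for ephrins, was at 0.0983, 0.199 and 0.0721 CPM in the syngeneic and 11.9, 16.3 and 10.4 CPM in the allogeneic libraries (log2 fold change 6.70 ± 0.35, adjusted p = 1.04e-07). Nrp2, a co-receptor for semaphorins and vascular growth factors, did the opposite, with 19.6, 15.8 and 19 CPM in the syngeneic, 1.13, 1.06 and 0.872 CPM in the allogeneic and 12.8, 11.3 and 11.1 CPM in the naive libraries (log2 fold change -4.14 ± 0.16, adjusted p = 1.6e-08). The ligand Sema7a (2.25 ± 0.17) and its receptor Plxnc1 (1.01 ± 0.11) rose together. Sema4c (2.85 ± 0.25) and Plxnd1 (2.17 ± 0.20), which are not named here as a pair, also rose. The list of 24 ADAM and matrix proteases had 8 members that rose and 4 that fell (median log2 change 0.00, and -0.52 with T-cell scaling). Adam8, a sheddase of adhesion molecules, went from 9.32, 14.3 and 16.9 to 193, 226 and 205 CPM (log2 fold change 3.94 ± 0.20, adjusted p = 8.61e-08), and Adamts14, which trims procollagen, from 4.52, 3.62 and 3.98 to 60.2, 104 and 101 CPM (log2 fold change 4.45 ± 0.20, adjusted p = 5.18e-08). Adam19 rose (1.37 ± 0.11).

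Tetraspanins, which organise receptors in the membrane, had 52.4% of members higher and 28.6% lower, against 24.3% and 20.7% of all genes. Among 21 tetraspanins, 11 rose and 6 fell (median log2 change 0.41, and -0.12 with T-cell scaling). Under that scaling 6 were higher and 9 lower. Tspan2 rose from 1.47, 2.86 and 2.08 to 12.8, 14.6 and 16.8 CPM (2.79 ± 0.28), while Tspan9 (-1.11 ± 0.19) and Tspan13 (-0.51 ± 0.12) fell. Within the Ly6 family, Ly6a, which encodes the Sca-1 antigen, rose from 137, 90.5 and 118 to 533, 433 and 475 CPM (log2 fold change 2.06 ± 0.15, adjusted p = 1.17e-06) and Ly6c1 fell from 15.7, 10.2 and 9.3 to 2.08, 2.14 and 3.53 CPM (-2.19 ± 0.27). In all, 3 of 17 Ly6 family genes rose and 7 fell (median log2 change -0.43, and -0.92 with T-cell scaling). Ly6 genes have close copies, so reads may be split between them. Lypd6b of the same family fell from 7.24, 7.87 and 5.39 to 0.103, 0.457 and 0.26 CPM (-4.56 ± 0.36, and -5.22 without allogeneic replicate 2). With 14 MS4A family genes tested, 4 rose and 3 fell (median log2 change 0.19, and -0.35 with T-cell scaling). These shares of 28.6% and 21.4% lie near the 24.3% and 20.7% of all genes. Ms4a4c, a membrane protein of the CD20 family, was at 75, 64.9 and 68.4 CPM in the syngeneic and 10.1, 7.68 and 9 CPM in the allogeneic libraries (log2 fold change -2.96 ± 0.11, adjusted p = 1.6e-08). Complement and coagulation genes had 11 members higher and 7 lower of 29 tested (median log2 change 0.27, and -0.27 with T-cell scaling), and the median of 0.27 became -0.15 under the stricter filter on low counts. Anxa2, an annexin that assembles plasminogen at the surface, rose from 118, 113 and 132 to 618, 496 and 537 CPM (log2 fold change 2.18 ± 0.11, adjusted p = 9.15e-08), and Cd55, which shields cells from complement, fell from 19.3, 22 and 17.8 to 8.02, 8.37 and 8.17 CPM (log2 fold change -1.26 ± 0.10, adjusted p = 2.2e-06).

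G protein-coupled receptors pass signals through G protein subunits to second messengers such as cyclic AMP. Tests of 47 G protein-coupled receptors called 24 higher and 10 lower (median log2 change 0.40, and -0.07 with T-cell scaling). The median of 0.40 became 0.30, 0.33 and 0.29 without allogeneic replicate 2, allogeneic replicate 3 and syngeneic replicate 2. For the 31 members with a naive mean of at least 1 CPM it was 0.07, the same as over all such genes. Vipr1, a receptor for vasoactive intestinal peptide, fell from 88.7, 60.9 and 60.8 to 5.17, 7.85 and 5.75 CPM, with 163, 142 and 180 CPM in naive T cells (log2 fold change -3.48 ± 0.20, adjusted p = 1.68e-07). Vipr2, the other receptor for the same peptide, was at 0.0983, 0.262 and 0.126 CPM in the syngeneic and 1.29, 0.696 and 0.686 CPM in the allogeneic libraries (2.45 ± 0.45). Adrb1, an adrenergic receptor, rose from 0.213, 0.614 and 0.532 to 4.13, 5.85 and 7.31 CPM (log2 fold change 3.67 ± 0.38, adjusted p = 1.85e-05). The groups did not overlap for any of these 3 receptors. Adgrg5, an adhesion receptor, fell from 160, 119 and 147 to 11.6, 20.3 and 19.8 CPM (log2 fold change -3.04 ± 0.20, adjusted p = 4.9e-07), and Gpr83 fell (-2.46 ± 0.28). Other members that rose were Gpr55, a receptor for lysophosphatidylinositol, from 18, 16.8 and 16.2 to 80.8, 109 and 130 CPM (2.65 ± 0.16), Cysltr1, for leukotrienes (2.71 ± 0.35), Ptger2 (1.38 ± 0.15) and Ptgdr2 (2.55 ± 0.37), for prostaglandins, and Hrh4, for histamine (3.54 ± 0.36). Cysltr1, Ptgdr2 and Hrh4 are also known from mast cells and basophils, of whose 5 markers 3 rose, and the part of those markers in these results was not tested. Vipr2, Gpr55, Cysltr1, Ptger2 and Ptgdr2 were chosen after their values were seen.

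All 13 called G protein subunits rose, but most of these calls were lost with T-cell scaling. Of 19 G protein subunits tested, 13 rose and 0 fell (median log2 change 0.62, and 0.09 with T-cell scaling). Under that scaling 3 members were higher and 2 lower. Gna15, a Gq-class alpha subunit of blood cells that couples to many receptors, went from 12.9, 14.6 and 15.8 to 110, 128 and 114 CPM (log2 fold change 3.02 ± 0.11, adjusted p = 1.58e-08), Gng2 from 46.8, 42.3 and 46.7 to 115, 119 and 120 CPM (log2 fold change 1.38 ± 0.08, adjusted p = 1.42e-07), and Gnai2, the main inhibitory alpha subunit of lymphocytes and chosen after its values were seen, from 617, 526 and 587 to 1035, 1006 and 957 CPM (0.79 ± 0.10). Their brakes were mixed. The list of 13 RGS genes had 5 members that rose and 4 that fell (median log2 change -0.62, and -1.16 with T-cell scaling). Rgs16 rose (1.55 ± 0.17) and Rgs2 (-1.01 ± 0.21), Rgs10 (-0.81 ± 0.15) and Rgs11 (-2.44 ± 0.34) fell. In the cyclic AMP pathway, the sensor Rapgef4 (EPAC2) fell from 31, 33.6 and 29.9 to 1.16, 2.37 and 2.69 CPM (log2 fold change -3.92 ± 0.24, adjusted p = 3.3e-07) and the cyclase Adcy6 from 43.1, 59.7 and 54.4 to 9.33, 7.73 and 8.47 CPM (log2 fold change -2.62 ± 0.13, adjusted p = 6.48e-08). The phosphodiesterase Pde4a, which breaks cyclic AMP down, rose from 2.43, 4.33 and 4.87 to 16.2, 20.8 and 23.8 CPM (log2 fold change 2.39 ± 0.28, adjusted p = 4.43e-05). Prkar1a, a regulatory subunit of protein kinase A, rose (0.72 ± 0.09). Among 39 cyclic AMP genes, 9 rose and 10 fell (median log2 change -0.07, and -0.58 with T-cell scaling), shares of 23.1% and 25.6% that lie near the 24.3% and 20.7% of all genes. In all, 12 of 38 diacylglycerol and phosphoinositide enzymes rose and 14 fell (median log2 change -0.09, and -0.57 with T-cell scaling). Dgkh, a kinase that removes diacylglycerol, rose from 8.91, 9.28 and 9.97 to 43.5, 63.6 and 55 CPM (log2 fold change 2.52 ± 0.14, adjusted p = 1.24e-07). The gamma-class PI 3-kinase, which G proteins switch on, rose in both its catalytic subunit Pik3cg (1.15 ± 0.07) and its regulatory subunit Pik3r6 (3.06 ± 0.44), and the G-protein-driven phospholipase Plcb3 rose (1.67 ± 0.13).

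Several voltage-gated potassium channels fell and a T-type calcium channel rose. With 53 calcium and potassium channel genes tested, 21 rose and 15 fell (median log2 change 0.22, and -0.26 with T-cell scaling), and the median of 0.22 became 0.10 without syngeneic replicate 2. Kcna2 was at 32.1, 32.4 and 35.2 CPM in naive, 13.5, 12 and 9.17 CPM in syngeneic and 0.722, 1.39 and 1.12 CPM in allogeneic libraries (log2 fold change -3.40 ± 0.22, adjusted p = 5.23e-07). Kcnc1 (-2.56 ± 0.15) and Kcnh2 (-2.65 ± 0.19) fell in the same order of groups. Cacna1i, the calcium channel, rose from 2.17, 2.63 and 2.23 to 14.1, 22.6 and 18.3 CPM (log2 fold change 2.97 ± 0.28, adjusted p = 8.19e-06). Tyrosine phosphatase genes had 19 members higher and 4 lower of 34 tested (median log2 change 0.36, and -0.14 with T-cell scaling). Ptpn13, a large cytoplasmic phosphatase, went from 21.1, 24.9 and 20.1 to 178, 184 and 157 CPM (log2 fold change 2.97 ± 0.12, adjusted p = 2.61e-08), Ptprj (CD148) from 16.2, 30.5 and 30.5 to 180, 219 and 200 CPM (log2 fold change 2.96 ± 0.22, adjusted p = 1.27e-06), and Ptpn3 from 4.33, 5.22 and 5.5 to 32, 32.3 and 30.6 CPM (2.66 ± 0.13). Ptpn11, which encodes SHP-2, rose from 123, 119 and 127 to 324, 353 and 351 CPM (1.48 ± 0.07), and Ptpn22 rose (0.83 ± 0.08), both chosen after their values were seen. Ptp4a3 fell (-0.68 ± 0.07).

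**Figure D4:**
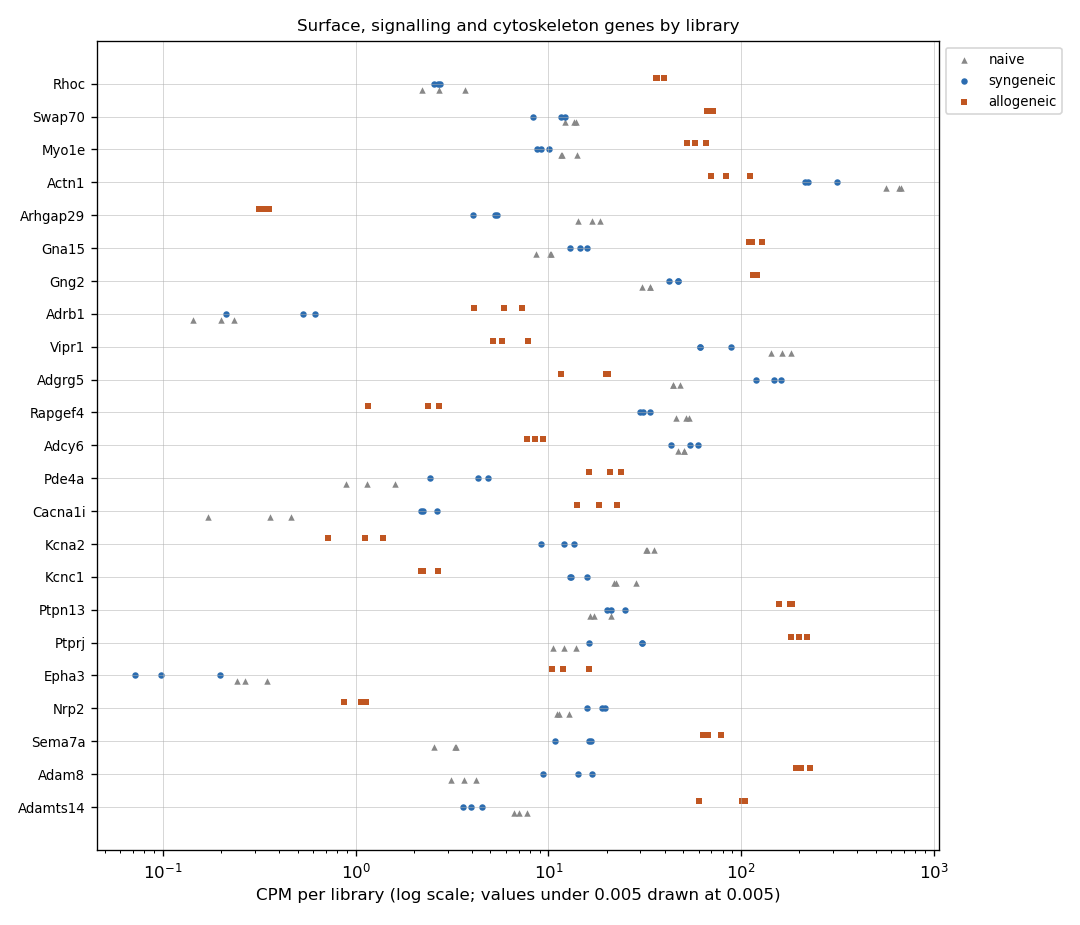
CPM per library on a log axis for 23 surface, signalling and cytoskeleton genes, with triangles for naive, circles for syngeneic and squares for allogeneic libraries. Gna15 is at 110 to 128 CPM in the allogeneic and 12.9 to 15.8 CPM in the syngeneic libraries, and Rapgef4 is at 1.16 to 2.69 against 29.9 to 33.6 CPM.

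Components of the Wnt pathway fell more often than they rose. Tests of 41 Wnt genes called 11 higher and 18 lower (median log2 change -0.27, and -0.76 with T-cell scaling). That is 26.8% higher and 43.9% lower, against 24.3% and 20.7% of all genes. Znrf3, a ubiquitin ligase that removes Frizzled receptors, fell from 63.4, 56.7 and 57.4 to 8.69, 12.8 and 10.3 CPM (log2 fold change -2.48 ± 0.13, adjusted p = 9.41e-08), and its close relative Rnf43 from 13.6, 15.4 and 15.6 to 5.48, 5.94 and 6.36 CPM (-1.33 ± 0.12). Lrp12 fell (-1.84 ± 0.18), and Dkkl1 (2.36 ± 0.18), Prickle1 (1.45 ± 0.22) and the Wnt receptor Ryk (1.36 ± 0.22) rose. Nkd1, a feedback inhibitor, was sparsely read at 0.213, 0.144 and 0.0361 CPM in the syngeneic and 0.966, 1.02 and 1.18 CPM in the allogeneic libraries (2.99 ± 0.47). Tcf7l2 fell (-2.01 ± 0.44), with syngeneic library 1 lowest of its group. Rnf43, Nkd1 and Tcf7l2 were chosen after their values were seen. Of 29 Hippo pathway genes tested, 13 rose and 7 fell (median log2 change 0.23, and -0.29 with T-cell scaling). Ajuba, a LIM scaffold that holds LATS kinases in check, went from 0.762, 0.542 and 0.911 to 35.6, 28.7 and 24.5 CPM (log2 fold change 5.32 ± 0.24, adjusted p = 5.13e-08), and the kinase gene Lats2 fell (-0.71 ± 0.11). The list of 49 nutrient-sensing genes had 17 members that rose and 12 that fell (median log2 change 0.10, and -0.39 with T-cell scaling). Deptor, an mTOR inhibitor, rose from 1.28, 2.07 and 1.88 to 12.6, 19.2 and 7.37 CPM (2.91 ± 0.33). Rragd, a GTPase that brings mTORC1 to the lysosome, fell from 4.58, 7.31 and 5.4 to 0.356, 0.763 and 0.881 CPM (-3.10 ± 0.30), as did Arrdc3 (-1.39 ± 0.21) and Arrdc4 (-1.91 ± 0.19), arrestin-like brakes on nutrient uptake.

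The actin list had 62.5% of members higher, most by less than 2-fold, against 24.3% of all genes. Among 88 actin regulators, 55 rose and 11 fell (median log2 change 0.52, and 0.04 with T-cell scaling), with 22 members higher and 24 lower under that scaling. Actb was at 10213, 7736 and 8923 CPM in the syngeneic and 14608, 13883 and 14586 CPM in the allogeneic libraries (0.68 ± 0.14, and 0.19 with T-cell scaling, adjusted p = 0.131). The monomer-binding proteins Pfn1 (0.66 ± 0.12) and Cfl1 (0.63 ± 0.12) rose by similar amounts and also lost their call with that scaling (0.17 and 0.15). Changes of at least 2-fold were fewer, with 12 members higher and 7 lower. Swap70, which bundles actin near the membrane, went from 8.34, 12.2 and 11.6 to 66.3, 71.6 and 66.7 CPM (log2 fold change 2.67 ± 0.14, adjusted p = 9.15e-08). Plek, pleckstrin, rose from 96.7, 86.8 and 102 to 390, 403 and 389 CPM (log2 fold change 2.05 ± 0.09, adjusted p = 4.45e-08). Capg, a capping protein (1.78 ± 0.09), Lsp1 (1.32 ± 0.11), the Arp2/3 subunits Arpc3 (0.95 ± 0.11) and Arpc5 (0.88 ± 0.11), and the intermediate filament gene Vim (1.44 ± 0.11) rose without overlap. Actn1, the crosslinker alpha-actinin 1, fell from 312, 221 and 214 to 69.6, 83.6 and 111 CPM, against 654, 563 and 672 CPM in naive T cells (log2 fold change -1.50 ± 0.18, adjusted p = 6.13e-05). The formin Daam1 (-1.93 ± 0.24) and Cnn3 (-2.29 ± 0.34, and -2.94 without allogeneic replicate 1) fell. Actb, Pfn1, Cfl1, Plek, Capg, Lsp1, Arpc3, Arpc5 and Vim were chosen after their values were seen.

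Small GTPase genes and the motors that act on actin also held called members. Rhoc, a small GTPase of the actin cytoskeleton, was at 2.73, 2.54 and 2.68 CPM in the syngeneic and 39.6, 36.1 and 36.7 CPM in the allogeneic libraries (log2 fold change 3.82 ± 0.17, adjusted p = 5.13e-08). Its inactivator Arhgap29 fell from 5.27, 5.39 and 4.08 to 0.338, 0.356 and 0.315 CPM, with 16.8, 14.3 and 18.4 CPM in naive T cells (log2 fold change -3.86 ± 0.18, adjusted p = 5.71e-08), and Arhgap5 (-1.79 ± 0.20) and Arhgap39 (-1.74 ± 0.11) fell. In all, 10 of 29 myosin genes rose and 10 fell (median log2 change -0.22, and -0.72 with T-cell scaling), and the median of -0.22 became 0.13 under the stricter filter on low counts and -0.57 without allogeneic replicate 3. Myo1e, a membrane-linked motor, rose from 8.76, 10.1 and 9.14 to 52.1, 57.2 and 65.7 CPM (log2 fold change 2.65 ± 0.12, adjusted p = 5.13e-08). The light chains Myl6b (2.65 ± 0.20) and Myl4 (1.70 ± 0.16) rose, and the motors Myo6 (-1.69 ± 0.16), Myo10 (-1.23 ± 0.14) and Myo9a (-1.09 ± 0.14) fell. With 45 tubulin and septin genes tested, 17 rose and 5 fell (median log2 change 0.25, and -0.25 with T-cell scaling). The beta-tubulin genes Tubb6 (2.98 ± 0.36) and Tubb3 (2.71 ± 0.28) rose and Tubb2a fell (-1.28 ± 0.27), and tubulin genes are similar in sequence, so reads may be split between them.

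Organelles of the secretory and degradative route had more members higher than lower with this scaling. Lysosomal genes had 29 members higher and 9 lower of 58 tested (median log2 change 0.31, and -0.19 with T-cell scaling). Ctsd, the aspartic protease cathepsin D, rose from 412, 364 and 399 to 1295, 1175 and 1188 CPM (log2 fold change 1.64 ± 0.10, adjusted p = 3.6e-07). The protective protein Ctsa (1.19 ± 0.10), the dipeptidyl peptidase Ctsc (1.15 ± 0.08), which activates granzymes, and the acid sphingomyelinase Smpd1 (1.12 ± 0.10) rose without overlap and were chosen after their values were seen. Hexa (-0.93 ± 0.12) and Naglu (-0.76 ± 0.11), which remove sugars, fell, as did Ctsf, from 2.53, 4.96 and 4.57 to 0.075, 0.139 and 0.0834 CPM (-5.28 ± 0.37). Tests of 19 V-ATPase genes called 9 higher and 3 lower (median log2 change 0.26, and -0.24 with T-cell scaling). Of 50 autophagy genes tested, 18 rose and 6 fell (median log2 change 0.12, and -0.37 with T-cell scaling). That is 36.0% higher and 12.0% lower, against 24.3% and 20.7% of all genes. Vmp1, a scramblase of the growing autophagosome, rose from 49.4, 55 and 53.2 to 124, 127 and 131 CPM (log2 fold change 1.27 ± 0.07, adjusted p = 2.2e-07), and Gabarapl1 rose (1.24 ± 0.19), while Atg14 fell (-0.55 ± 0.10). The list of 54 Rab genes had 28 members that rose and 4 that fell (median log2 change 0.28, and -0.22 with T-cell scaling). Rab19 (1.44 ± 0.11), Rab4a, of the recycling endosome (1.28 ± 0.13), and, chosen after their values were seen, Rab8b (1.20 ± 0.09) and Rab29 (1.24 ± 0.11) rose. Rab6b fell from 12.5, 10.7 and 9.93 to 4.29, 5.12 and 6.59 CPM against 49.2, 58.1 and 40.5 CPM in naive T cells (-1.05 ± 0.17). Among 54 sorting nexin, SNARE and fusion genes, 24 rose and 5 fell (median log2 change 0.28, and -0.22 with T-cell scaling). The syntaxins Stx2 (-2.63 ± 0.15) and Stx1a (-2.62 ± 0.19) fell, and Syt11 (1.58 ± 0.11) and the SNARE Ykt6 (0.89 ± 0.10) rose.

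In all, 26 of 49 peroxisomal genes rose and 2 fell (median log2 change 0.35, and -0.16 with T-cell scaling). That is 53.1% higher and 4.08% lower, against 24.3% and 20.7% of all genes. Under T-cell scaling 4 members were higher and 16 lower. Crot, which hands shortened fatty acids from the peroxisome to the mitochondrion, rose from 36.5, 37.2 and 35.8 to 89.2, 89.1 and 79.4 CPM (log2 fold change 1.24 ± 0.07, adjusted p = 2.94e-07), and Pex11a, which drives peroxisome division, from 0.721, 0.533 and 0.667 to 2.83, 2.35 and 2.05 CPM (1.91 ± 0.25). The import receptor Pex5, chosen after its values were seen, rose (0.53 ± 0.09, and 0.04 with T-cell scaling). Amacr (-1.09 ± 0.22) and Pecr (-0.69 ± 0.20) were the members that fell, and Pecr lost its call without allogeneic replicate 2 (adjusted p = 0.067) or syngeneic replicate 3 (0.055). With 70 genes of mitochondrial dynamics and import tested, 21 rose and 7 fell (median log2 change 0.14, and -0.37 with T-cell scaling). The calcium uniporter regulators Mcub (1.28 ± 0.19) and Micu2 (0.89 ± 0.08) rose, and the coactivators of mitochondrial biogenesis Ppargc1b (-1.34 ± 0.12) and Pprc1 (-0.94 ± 0.10) fell, Ppargc1b from 24.9, 20.1 and 21.9 to 8.2, 10 and 8.21 CPM.

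Glycosyltransferases, which build the sugar coat of surface proteins, rose in 56.3% of members, against 24.3% of all genes. Glycosyltransferase genes had 40 members higher and 12 lower of 71 tested (median log2 change 0.33, and -0.16 with T-cell scaling). Under that scaling 10 were higher and 25 lower. Galnt3, which starts mucin-type O-glycans, went from 1.25, 1.96 and 2.13 to 23.2, 26.8 and 26.7 CPM (log2 fold change 3.85 ± 0.24, adjusted p = 3.78e-07), and B4galnt4, which makes LacdiNAc ends, from 1.9, 2.66 and 2.4 to 30.4, 35.6 and 32.6 CPM (log2 fold change 3.83 ± 0.14, adjusted p = 1.58e-08). Fut8, the core fucosyltransferase (0.80 ± 0.08, and 0.29 with T-cell scaling), and Man1c1, a Golgi mannosidase (1.30 ± 0.15), rose and were chosen after their values were seen. Chst15, which sulfates chondroitin, fell from 28.1, 26.1 and 25.2 to 5.68, 3.59 and 4.13 CPM (log2 fold change -2.57 ± 0.15, adjusted p = 2.34e-07). Mgat4a (-1.36 ± 0.07) and Galnt10 (-0.78 ± 0.10) fell. Tests of 40 sphingolipid genes called 15 higher and 7 lower (median log2 change 0.06, and -0.45 with T-cell scaling). The sialyltransferases St8sia1, which makes the ganglioside GD3, from 61.2, 55.9 and 44.4 to 13, 14.5 and 13.1 CPM (log2 fold change -1.99 ± 0.11, adjusted p = 1.83e-07), and St8sia6, from 6.93, 7.99 and 5.24 to 0.966, 0.602 and 1.21 CPM (-2.89 ± 0.24), fell, with naive levels of 147, 142 and 152 and 72.5, 66.9 and 86 CPM. Smpdl3b, a membrane-bound phosphodiesterase, rose from 5.61, 4.75 and 6.11 to 42.3, 37.4 and 30.6 CPM (log2 fold change 2.74 ± 0.18, adjusted p = 5.49e-07).

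Of 47 genes of lipid uptake, efflux and storage tested, 15 rose and 11 fell (median log2 change 0.00, and -0.50 with T-cell scaling). Osbpl3, an oxysterol-binding protein of membrane contact sites, rose from 40.6, 45 and 51.4 to 205, 238 and 237 CPM (log2 fold change 2.31 ± 0.12, adjusted p = 1.07e-07). G0s2, an inhibitor of lipolysis (-2.10 ± 0.24), and Apoe, the cholesterol carrier (-1.90 ± 0.25), fell. Apoe is also a macrophage gene, and the part of the macrophage markers, of which 11 of 14 fell, was not tested. The list of 44 eicosanoid and phospholipase genes had 15 members that rose and 10 that fell (median log2 change -0.02, and -0.57 with T-cell scaling), and 4 of its 7 members lower by 2-fold or more had the library pattern of the erythroid markers. Among 57 NAD and glutathione genes, 19 rose and 17 fell (median log2 change 0.13, and -0.45 with T-cell scaling), and the median of 0.13 became 0.01, 0.00 and -0.03 without allogeneic replicate 1, allogeneic replicate 3 and syngeneic replicate 1. Parp8, a mono-ADP-ribosyltransferase, fell from 34.1, 36.8 and 34.2 to 6.68, 7.12 and 9.44 CPM (log2 fold change -2.18 ± 0.12, adjusted p = 1.86e-07), and Mgst2, a microsomal glutathione transferase, from 29.1, 30.8 and 27.5 to 6.65, 7.72 and 8.09 CPM (log2 fold change -1.96 ± 0.10, adjusted p = 8.37e-08). Gstt3 rose from 0.778, 0.993 and 0.757 to 6.61, 5.14 and 5.07 CPM (2.73 ± 0.21). Gclm, the modifier subunit of glutathione synthesis, fell (-1.24 ± 0.23), and Gsr, which recycles oxidised glutathione, rose (0.66 ± 0.11, and 0.14 with T-cell scaling), both chosen after their values were seen.

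In all, 16 of 37 metallothionein and metal transporter genes rose and 4 fell (median log2 change 0.29, and -0.21 with T-cell scaling). Metallothioneins are small proteins that hold zinc and copper, and the 3 tested were called higher. Mt1 stood at 1.93, 5.73 and 5.68 CPM in the syngeneic and 22.1, 18.9 and 11.8 CPM in the allogeneic libraries (1.99 ± 0.40). Mt2, chosen after its values were seen, stood at 1.93, 6.21 and 6.53 and 15.8, 9.79 and 7.51 CPM (1.17 ± 0.41), and Mt3 at 0.0328, 0.0452 and 0.135 and 2.8, 2.45 and 2.57 CPM (5.19 ± 0.46, and 6.04 without syngeneic replicate 3). The call of Mt2 was lost without allogeneic replicate 1 (0.83, adjusted p = 0.146) or allogeneic replicate 2 (adjusted p = 0.0543), with DESeq2 (0.0755) and with T-cell scaling (0.59). The zinc importer Slc39a4 rose from 8.94, 7.96 and 8.97 to 25.4, 23.3 and 23.5 CPM (log2 fold change 1.48 ± 0.11, adjusted p = 1.77e-06). Genes that p53 is known to induce rose in 55.0% of members and fell in 22.5%, against 24.3% and 20.7% of all genes. With 40 p53 target genes tested, 22 rose and 9 fell (median log2 change 0.36, and -0.16 with T-cell scaling). Under that scaling 6 were higher and 15 lower. Trp73, a p53 relative, was at 0.164, 0.144 and 0.27 CPM in the syngeneic and 3.58, 3.5 and 5.88 CPM in the allogeneic libraries (log2 fold change 4.48 ± 0.35, adjusted p = 2.29e-06). Pmaip1, the death-promoting NOXA, rose from 8.33, 10.4 and 9.64 to 43.2, 43 and 42.1 CPM (log2 fold change 2.18 ± 0.11, adjusted p = 6.81e-08), and Cdkn1a, the cell cycle inhibitor p21 and chosen after its values were seen, from 4.16, 5.67 and 7.16 to 14.3, 11.9 and 12 CPM (1.17 ± 0.21, and 0.63 with T-cell scaling, adjusted p = 0.054). Gadd45a (-2.38 ± 0.24) and Dglucy (-2.15 ± 0.10) fell, Gadd45a with syngeneic library 1 lowest of its group. Chaperone genes had 7 members higher and 12 lower of 51 tested (median log2 change -0.10, and -0.59 with T-cell scaling). Dnajb2 (-3.10 ± 0.23) and Dnaja4 (-1.62 ± 0.15) fell, Dnajb2 with syngeneic library 1 lowest of its group, and Hspa2 rose (1.37 ± 0.19). The near-identical Hspa1a and Hspa1b, between which reads cannot be split with certainty, were at 1.54, 4.18 and 0.523 and 3.02, 8.01 and 1.14 CPM in the syngeneic libraries, with the peak in library 2, and their decreases of -3.13 and -2.95 became -2.14 and -2.00 without it.

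Ubiquitin, RNA and translation genes were called in both directions. Tests of 71 ubiquitin ligases and deubiquitinases called 20 higher and 20 lower (median log2 change 0.00, and -0.51 with T-cell scaling). Nedd4l, a ligase that removes channels and receptors from the membrane, fell from 32.3, 28.3 and 29.4 to 3.35, 3.19 and 4.85 CPM (log2 fold change -2.99 ± 0.15, adjusted p = 9.15e-08), and the deubiquitinases Usp28 (-1.62 ± 0.10), Usp2 (-1.68 ± 0.20) and Otud1 (-1.59 ± 0.13) fell. Asb2, the substrate receptor of a cullin ligase, rose from 5.29, 8.3 and 8.56 to 55.8, 41.3 and 45.4 CPM (2.69 ± 0.25). Of 56 mRNA decay regulators tested, 10 rose and 12 fell (median log2 change -0.03, and -0.51 with T-cell scaling). Their shares were 17.9% higher and 21.4% lower, against 24.3% and 20.7% of all genes. Igf2bp3, a fetal RNA-binding protein, rose from 2.24, 1.66 and 1.92 to 30.8, 26.6 and 24.1 CPM (log2 fold change 3.81 ± 0.18, adjusted p = 5.21e-08). Zfp36, tristetraprolin, which destroys cytokine messages, fell from 407, 339 and 324 to 134, 165 and 118 CPM (log2 fold change -1.36 ± 0.13, adjusted p = 1.01e-05). The list of 67 splicing factors had 7 members that rose and 15 that fell (median log2 change -0.02, and -0.52 with T-cell scaling), and the 22 calls became 13 without syngeneic replicate 2. That is 10.4% higher and 22.4% lower, against 24.3% and 20.7% of all genes. Clk1, a kinase of splicing factors, fell (-0.89 ± 0.16). Among 54 RNA-modifying enzymes, 7 rose and 13 fell (median log2 change 0.01, and -0.50 with T-cell scaling). Apobec2 (2.10 ± 0.19) and Dus2, which makes dihydrouridine in transfer RNA (1.16 ± 0.10), rose, and the transfer RNA enzymes Mettl1 (-1.21 ± 0.18) and Qtrt2 (-1.13 ± 0.10) fell. In all, 15 of 54 translation factors rose and 8 fell (median log2 change 0.06, and -0.45 with T-cell scaling), and the 23 calls became 14 without syngeneic replicate 2 and 14 without syngeneic replicate 3. That is 27.8% higher and 14.8% lower, against 24.3% and 20.7% of all genes. Eif4e3, a cap-binding relative of eIF4E, rose from 10.1, 9.55 and 10.7 to 26.4, 26.7 and 26.6 CPM (log2 fold change 1.40 ± 0.09, adjusted p = 6.28e-07), and Eef2k, which stops elongation, fell from 26.5, 44.6 and 44.2 to 11.2, 4.56 and 6.94 CPM (-2.35 ± 0.29). With 53 nuclear pore and karyopherin genes tested, 9 rose and 6 fell (median log2 change -0.03, and -0.53 with T-cell scaling), and the 15 calls became 9 without syngeneic replicate 2. Both shares, 17.0% higher and 11.3% lower, lie below the 24.3% and 20.7% of all genes. The importin Ipo4 fell (-0.92 ± 0.11).

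Histone methylation enzymes had 12 members higher and 20 lower of 65 tested (median log2 change -0.10, and -0.60 with T-cell scaling), with no member higher and 3 lower by 2-fold or more. Ehmt2, the H3K9 methyltransferase G9a, rose from 168, 142 and 157 to 300, 333 and 301 CPM (log2 fold change 1.00 ± 0.09, adjusted p = 6.48e-06), and Kdm4a, a demethylase of the same residue, rose (0.85 ± 0.09). The demethylases Kdm7a (-1.02 ± 0.13) and Kdm6b (-0.85 ± 0.12), the H3K4 methyltransferase Kmt2d (-0.61 ± 0.14) and Smyd2 (-1.01 ± 0.16) fell, Kdm6b and Kmt2d being chosen after their values were seen. Tests of 60 remodelling subunits called 13 higher and 13 lower (median log2 change 0.01, and -0.49 with T-cell scaling). These shares, 21.7% in each direction, lie near the 24.3% and 20.7% of all genes. Chd3, an ATPase of the NuRD complex, fell from 769, 628 and 679 to 219, 325 and 359 CPM (log2 fold change -1.20 ± 0.16, adjusted p = 0.000127), and Smarca2 (BRM, -0.75 ± 0.11) and Bcl7a (-1.34 ± 0.11) of the BAF complex fell. Of 28 cohesin and condensin genes tested, 6 rose and 5 fell (median log2 change 0.00, and -0.52 with T-cell scaling), and the 11 calls became 7 in a fit of the 6 transplant libraries alone. The shares of 21.4% higher and 17.9% lower lie near the 24.3% and 20.7% of all genes. Rad21, the cohesin kleisin, rose (0.54 ± 0.10, and 0.02 with T-cell scaling), and Smc4, a condensin subunit, fell (-0.49 ± 0.13).

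Among noncoding transcripts with at least 10 CPM, decreases included Gm26551 (-2.56 ± 0.21), the imprinted Peg13, from 25.1, 24 and 20.6 to 5.68, 6.34 and 7.11 CPM (log2 fold change -1.87 ± 0.11, adjusted p = 2.82e-07), Gdap10 (-1.59 ± 0.15), the snoRNA host Snhg12 (-1.27 ± 0.12) and D030028A08Rik (-1.26 ± 0.14). B930095G15Rik (2.87 ± 0.22), F730043M19Rik (2.33 ± 0.26), Gm14005 (1.64 ± 0.27), 4933431E20Rik (1.63 ± 0.30) and 2810001G20Rik (1.51 ± 0.15) were the 5 largest increases. Reads on transcripts that overlap other genes may not be separable, since the strand setting used in counting was not stated in the labels.

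A part of the fallen genes shared a library pattern with the red-cell transcripts. The erythroid marker sum of 2379, 5590 and 4804 CPM in syngeneic libraries 1, 2 and 3 put library 1 at 0.458 of the mean of the other two. The macrophage marker sum of 60.1, 217 and 202 CPM had the same order, and the neutrophil marker sum of 440, 1243 and 1348 CPM was also lowest in library 1. Of the 2283 genes lower by at least 2-fold, 560 (24.5%) had library 1 below 0.5 of that mean, against 10.5% of all genes tested and 249 of the 1533 genes higher by at least 2-fold (16.2%). Of the 1258 such genes with a naive mean under 1 CPM, 462 (36.7%) did so, and of the 1025 with at least 1 CPM in naive T cells, 98 (9.56%). Sox6, a transcription factor known from red-cell precursors, was at 25.9, 98.1 and 80.2 CPM in the syngeneic and 1.52, 0.29 and 0.408 CPM in the allogeneic libraries (log2 fold change -6.58 ± 0.65, adjusted p = 1.28e-05, and -7.64 without allogeneic replicate 1). Its naive values were 0.0214, 0.0336 and 0.0349 CPM. The same pattern held for Slc25a37, which brings iron into mitochondria, at 245, 619 and 515 and 23.4, 30.8 and 31.8 CPM (-4.00 ± 0.29), Car2, a carbonic anhydrase (-3.59 ± 0.57, and -4.42 without allogeneic replicate 1), March8, a membrane ubiquitin ligase (-3.87 ± 0.45), and Tspan33 (-4.70 ± 0.66, and -5.83 without allogeneic replicate 1). Ctse, Atp6v0a1, Mgll, Mgst3, Abcg2, St3gal5, Lmna, Arhgef40, Prkar2b, Rgs12, Pip5k1b and Vangl1 of the lists showed it too, with decreases of 1.83 to 3.83, and without allogeneic replicate 1 Abcg2 and Prkar2b stood at -3.59 and -2.99. Dnajb2 (22.4, 45.7 and 40.7 CPM) had syngeneic library 1 lowest, though not below 0.5 of the mean of libraries 2 and 3. The same held for Gadd45a (11, 21.3 and 20.6 CPM) and Gclm (36.7, 76.7 and 67 CPM). Ctsf (2.53, 4.96 and 4.57 CPM) and Daam1 (22.2, 44.7 and 38.9 CPM) also had this order. The part of red-cell, macrophage and neutrophil transcripts in these results was not tested. For Sh3pxd2a, Slc16a5, Nrp2, Vipr1, Tet1 and Irs2, by contrast, no syngeneic library was below 0.5 of the mean of the other two, and their naive libraries lay at 11.1 CPM or more.

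**Figure D5:**
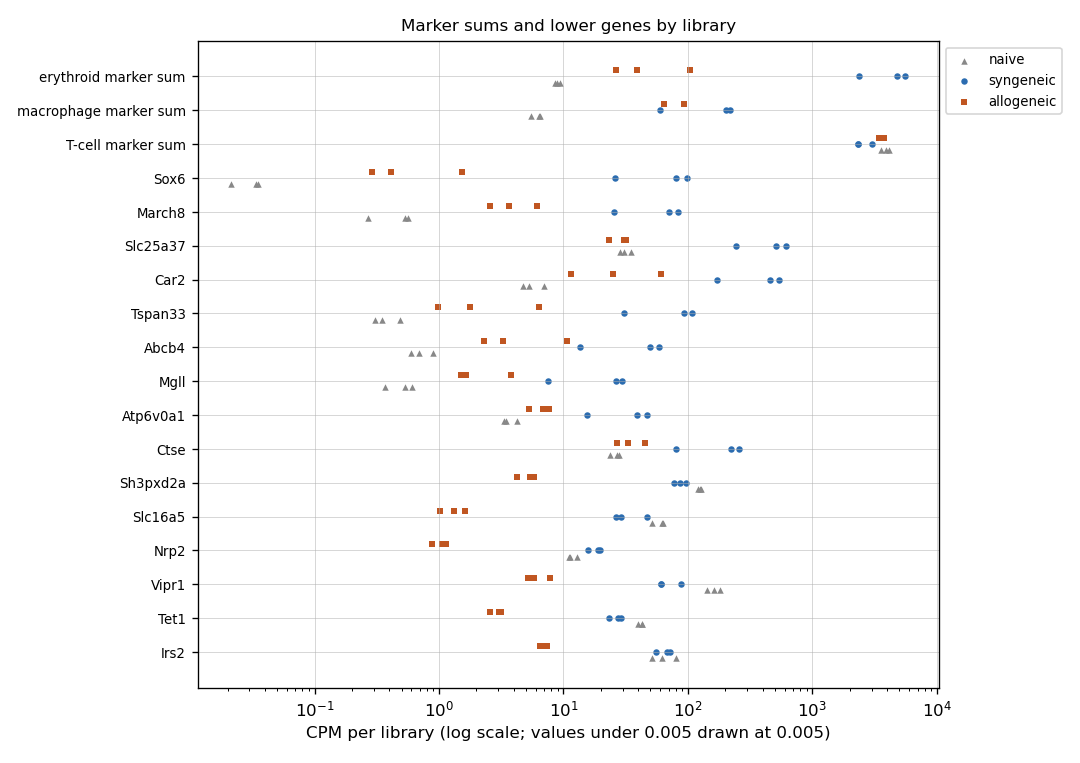
Summed CPM of the erythroid, macrophage and T-cell marker lists and CPM of 15 genes that fell, per library on a log axis, with triangles for naive, circles for syngeneic and squares for allogeneic libraries. From Sox6 to Ctse the lowest syngeneic value stands apart from the other two as in the erythroid sum of 2379, 5590 and 4804 CPM, while from Sh3pxd2a to Irs2 no syngeneic value is below 0.5 of the mean of the other two.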

How the data were processed

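The deposited values are whole-number read counts per gene for 9 libraries, in 1 table of 29229 Ensembl genes, of which 541 had no count. Per the submitters' processing notes, the tools the authors ran before depositing these counts include HTSeq 0.6.1, Bowtie2 2.2.1, TopHat2 2.0.13 and FastQC 0.11.3, with build GRCm38, and the strand setting of the counting was not stated. Names and classes came from GENCODE M21 for 29014 identifiers, with 215 unmatched.

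From the counts, edgeR 4.0.16 was fitted to all 9 libraries (filterByExpr by group, trimmed mean of M-values scaling, glmQLFit, glmQLFTest), with group as the sole term and Benjamini-Hochberg adjustment over the 19609 genes tested. The standard error is the size of a fold change over the square root of its F statistic. The fit was tested on simulated counts. List medians are given with this scaling and with library sizes set by the summed counts of 10 T-cell markers, the latter chosen after seeing the data. Alternatives were other scalings, filters and tools (DESeq2 1.42.0, limma 3.58.1), 6 libraries, no ribosomal RNA locus, a replicate block and each replicate left out. Replicates differed beyond sampling noise. Summed ribosomal RNA locus genes (Gm26917 and Gm42418) held 19.4% to 22.4% of counts in syngeneic and 7.87% to 17.2% in allogeneic libraries.

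The gene lists were chosen with earlier results of these data known. Named genes follow a rule. In each list they are up to 4 called genes with the largest change and at least 2 CPM in a transplant group, and up to 2 called against the majority. Outside the lists they are the 20 largest increases (at least 10 CPM in allogeneic libraries) and 20 largest decreases (at least 10 CPM in syngeneic and 5 CPM in naive libraries) of called, non-overlapping protein-coding genes, and 5 noncoding transcripts each way. A further 53 list members were chosen after their values were seen. A few results are not reported here. Promoter sequences are RefSeq's on GRCm38.p6.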

Additional observations from a re-analysis of the deposited data

How the results depend on the processing

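Over the other scalings, filters, tools and sample sets tried, 3825 to 4859 genes were higher and 3105 to 4290 lower in allogeneic libraries. Leaving out 1 library at a time gave 3825 to 4833 higher and 3105 to 4290 lower. The 6 transplant libraries alone, without the naive ones in the estimate of the spread, gave 4303 higher and 3649 lower. With the replicate block, 4657 genes were higher and 4012 lower, and same-numbered syngeneic and allogeneic libraries did not deviate together (r = -0.12, -0.09 and 0.02), so the numbers were not used as pairs. Scaling to T-cell markers, added after seeing the data, gave 1513 higher and 9301 lower. That scaling turned Cnot3 (0.00), Hnrnpl (-0.02), Ptbp3 (-0.20), Csnk1d (-0.12), Ncaph (-0.05) and Cry1 (-0.14) from higher to 0 or below, and 28 of the 391 genes looked at individually kept their direction but lost their call. Under each of the other settings 0 to 11 of the 391 lost it. The stricter filter on low counts, which tests fewer genes, turned the medians of complement and coagulation genes (-0.15), myosins (0.13), SOX, ETS and RUNX factors (-0.02, from 0.04) and chromatin remodelling genes (-0.06, from 0.01). With 1 library left out, the median of chaperone genes went from -0.10 to 0.00 without allogeneic replicate 2. Calls of cohesin and condensin genes went from 11 to 7 with the 6 transplant libraries alone. With 1 library left out, splicing factor calls ranged from 13 to 25 (22 with all libraries), translation factor calls from 14 to 26 (23) and nuclear pore and karyopherin calls from 9 to 14 (15), where fewer samples are tested.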
